A study of Homo sapiens with 6 samples.

Results

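MYC and the genes of its MAX network encode basic helix-loop-helix leucine zipper factors that meet on one small partner, MAX. The members were taken by name, and 9 of the 10 genes asked for were measured among 17687 genes: MYC, MYCN, MAX, MXI1, MXD1, MXD3, MNT, MGA and MLX, each by 1 probe set. MXD4 was not analysed here, because no probe set carried its name in the gene table used. The arrays held RNA of Jurkat, an established human line of leukaemic T cells (T-ALL, acute lymphoblastic leukaemia of T cell origin). Cells of 3 arrays were mixed into bovine type I collagen at 1.7 mg/mL, which set for 1 h and was then covered with medium for 2 h, a 3 h culture called 3D here. Cells of the other 3 arrays spent the 3 h in suspension. Both groups grew in RPMI with 10% serum, and all samples came from the one untreated cell line. The labels call the 3 samples of a group biological replicates without saying what separated them, so p-values measure the spread between these samples.

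MYC binds the DNA sequence called the E-box only as a dimer with MAX, and the pair recruits acetyltransferases and elongation factors that raise transcription of growth genes. MXD1, MXI1, MXD3 and MNT compete for the same partner and the same sites, and bring the SIN3 corepressor with its histone deacetylases. MGA joins MAX in a variant polycomb complex that silences genes, while MLX forms a parallel branch with the nutrient-sensing factors MondoA and ChREBP. In T-ALL, NOTCH signalling commonly drives MYC, and MYC supports the growth of the leukaemic cells.

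Values are the log2 expression of each probe set as deposited, so a difference of 1 is a 2-fold change. Array medians lay between 5.55 and 5.64, and correlations between arrays over all genes ran from 0.971 to 0.991. On the first principal component, which carried 42.8% of the variance, suspension replicate 1 (score -40.4) and 3D replicate 3 (29.2) stood at opposite ends. The 13 T cell markers had median levels of 9.08 to 9.36 in 3D arrays and 9.06 to 9.37 in suspension arrays. The 28 measured markers of other cell types had medians of 4.56 to 4.69 in 3D arrays and 4.54 to 4.91 in suspension arrays. A mean of 6 or more was found for 13 of 13 T cell markers and for 5 of 28 others, among them CD79A, a B cell gene, with 8.14 in 3D and 8.43 in suspension. Levels of different probe sets are not comparable, so these values do not establish the cell type, which is given by the labels.

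The comparison asked which network genes differ after 3 h in collagen. As deposited, MYC had lower values in 3D and MGA had higher ones, each with no overlap between the groups, and the other 7 members overlapped. By limma over all 17687 genes, 0 members passed at an adjusted p under 0.05, where 0 of all genes (0%) passed. At an unadjusted p under 0.05 2 members differed, MYC lower and MGA higher, against 9.87% of all genes (3.97% lower, 5.9% higher). The groups did not overlap for 2 of 9 members, against 16.3% of all genes (8.03% lower, 8.28% higher), and both shares of members rest on this pair of genes. An equal-variance test without moderation also gave 0 members past the adjusted threshold and 2 at an unadjusted p under 0.05. Over the 9 members the median log2 difference was -0.12, with 2 higher and 7 lower in 3D. All genes had a median of -0.02, with 8376 higher and 9311 lower. Without suspension replicate 1 the members' median was 0.03.

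**Figure D1:**
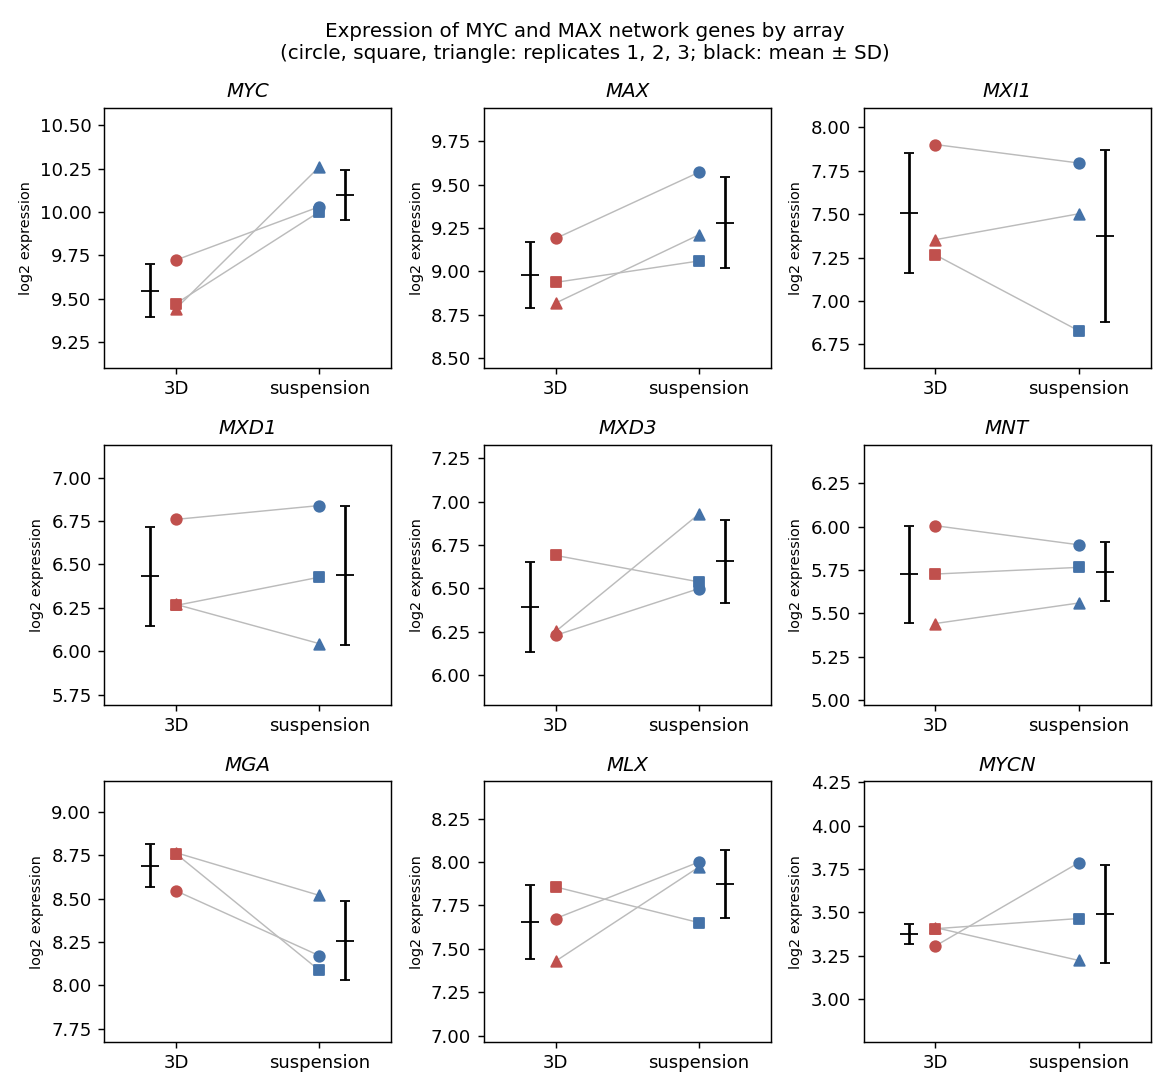
Each panel plots the log2 expression of 1 network gene in the 3 arrays of 3D culture (left, red) and the 3 of suspension culture (right, blue), over a range of 1.5 log2 units. Grey lines join arrays of the same replicate number, and black marks give the mean ± SD. MYC lies lower in all 3 arrays of 3D culture, MGA lies higher in all 3, and the other panels overlap.

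MYC, the factor after which the network is named, measured 9.72, 9.47 and 9.44 in 3D replicates 1, 2 and 3, against 10.03, 10.00 and 10.26 in suspension. The highest 3D array thus stood below the lowest suspension array. The means were 9.55 ± 0.15 (SD, n = 3) in 3D and 10.10 ± 0.14 (SD, n = 3) in suspension. The log2 difference was -0.55 ± 0.16 (SE), or 0.682-fold, with a 95% interval of -0.91 to -0.19. Limma gave an unadjusted p of 0.00634 and an adjusted p of 0.385. Permuting the group labels of the 6 arrays exactly (two-sided) gave p = 0.1, and 3 against 3 allows no smaller value. In RNA pooled from many cells, less MYC mRNA per cell and fewer cells that make it cannot be told apart. The arrays also do not measure total RNA per cell, so a change shared by all transcripts would not be seen.

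MYC was lower in 3D in all 3 pairs of equal replicate number, by a log2 difference of -0.31 in pair 1, -0.53 in pair 2 and -0.82 in pair 3. With 1 array left out the difference ran from -0.64 (without 3D replicate 1) to -0.47 (without suspension replicate 3), and its unadjusted p (limma) from 0.00527 to 0.0308. A fit with replicate pairs as a block gave an adjusted p (limma) of 0.123, where 0.0905% of all genes and 0 members passed. At an unadjusted p under 0.05 that fit had MYC lower and MGA higher among members, against 17.4% of all genes, 7.36% lower and 10% higher in 3D. It passed, at 0.0111, when the block was combined with a limit to the 8342 genes of mean 6 or more, where 14.4% of the genes tested passed (3.78% as lower and 10.6% as higher in 3D). That call was lost without pair 3, where the difference was -0.42 and the adjusted p 0.197.

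MYCN, a MYC paralogue known from neuroblastoma, measured 3.31, 3.41 and 3.41 in 3D arrays and 3.79, 3.46 and 3.22 in suspension arrays. Those values lie near the floor of the arrays, whose lowest values were between 1.97 and 2.04, and expression cannot be told from none there. The difference was -0.12 ± 0.18 (SE), with a 95% interval of -0.51 to 0.28. MYCL, the third MYC paralogue and not one of the 10 genes, had a difference of -0.28 ± 0.18 at means of 5.30 in 3D and 5.59 in suspension.

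MAX, the shared partner, had values of 9.19, 8.94 and 8.82 in 3D and 9.57, 9.06 and 9.21 in suspension. The groups overlapped, since the highest 3D array lay above the lowest suspension array. The log2 difference was -0.30 ± 0.19 (SE), with a 95% interval of -0.71 to 0.11 and an adjusted p of 0.604 (limma). By replicate number the differences were -0.38, -0.12 and -0.39, so MAX was lower in 3D in 3 of 3 pairs, as was MYC. In both cultures replicate 1 held the highest MAX value.

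The genes of the SIN3-binding repressors showed no separation between the cultures. MXI1 measured 7.90, 7.27 and 7.35 in 3D and 7.80, 6.83 and 7.50 in suspension, a log2 difference of 0.13 ± 0.26 (SE). MXD1 measured 6.76, 6.26 and 6.27 in 3D and 6.84, 6.43 and 6.04 in suspension, a difference of -0.01 ± 0.23. In both genes the spread between replicates of a group exceeded the difference between groups, and replicate 1 was highest in each culture.

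MXD3, which is induced around S phase in dividing cells, measured 6.23, 6.69 and 6.25 in 3D and 6.50, 6.54 and 6.93 in suspension. The log2 difference was -0.26 ± 0.19 (SE), with an interval of -0.69 to 0.16, and pair 2 ran the other way at 0.15. MNT, the most broadly expressed antagonist of MYC, measured 6.01, 5.73 and 5.44 in 3D and 5.90, 5.77 and 5.56 in suspension. Its difference was -0.02 ± 0.19, with an interval of -0.43 to 0.40. The signs of MXI1, MXD1, MNT and MYCN turned under some settings given in the closing section, so no direction is given for these 4 genes. Their intervals still allow differences of about the size measured for MAX in either direction, except that the upper bound of MYCN was 0.28.

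MGA, the largest protein of the network and a scaffold of the polycomb complex PRC1.6, was the member with the highest difference. It measured 8.54, 8.76 and 8.76 in 3D arrays, against 8.17, 8.09 and 8.52 in suspension arrays. The lowest 3D array lay just above the highest suspension array, 8.54 against 8.52. After a further quantile normalization 0 members were higher without overlap, so this separation of MGA was lost. The log2 difference was 0.43 ± 0.17 (SE), or 1.35-fold, with a 95% interval of 0.05 to 0.81, an unadjusted p of 0.0297 and an adjusted p of 0.471 (limma). All 3 pairs were higher in 3D, at 0.37, 0.67 and 0.25. With the replicate block the adjusted p was 0.189, and with the block and a mean of 6 or more it was 0.0380, where 10.6% of genes passed as higher in 3D. Without pair 1, 2 or 3 that setting gave adjusted p-values of 0.106, 0.180 and 0.0869.

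MLX, which pairs with MondoA and ChREBP but not with MYC, measured 7.67, 7.86 and 7.43 in 3D and 8.001, 7.65 and 7.97 in suspension. Replicates 1 and 3 were lower in 3D by -0.33 and -0.54, and replicate 2 was higher by 0.21. The difference over all arrays was -0.22 ± 0.18 (SE), with an adjusted p of 0.687. MondoA (MLXIP) had a difference of -0.06 ± 0.21 and ChREBP (MLXIPL) of -0.28 ± 0.28, and neither pair of groups was separated.

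**Figure D2:**
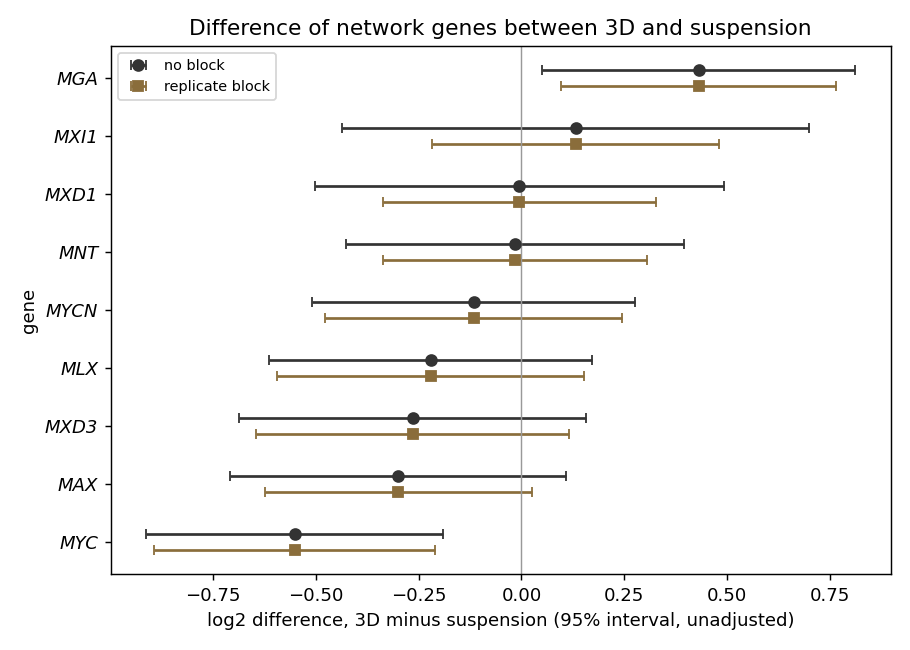
Points give the log2 difference of each network gene, 3D minus suspension, and bars its unadjusted 95% interval from limma, without (circles) and with (squares) the replicate number as a block. The intervals of MYC lie below 0 and those of MGA above 0 in both fits, and the intervals of the other 7 genes include 0.

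Set beside MYC, the difference of MGA was larger by 0.98 log2, and by 0.68, 1.20 and 1.06 in pairs 1, 2 and 3. The difference of MAX exceeded that of MYC by 0.25 over all arrays, but by -0.07 in pair 1. MXI1, MXD1, MXD3 and MNT exceeded MYC in each pair, by 0.04 to 1.04 log2. Levels of different probe sets were not compared, so these values describe unequal differences and not the ratio of the proteins.

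The genes most like MYC over the arrays were MAF1, a repressor of RNA polymerase III, ARL2, a small GTPase of tubulin folding and mitochondria, ATG101, an autophagy initiation gene, RPRML and PFKFB3, an enzyme that sets glycolytic rate. Likeness was the root mean square distance between values centred on each gene's mean over 6 arrays. It was 0.04 log2 for MAF1 and ARL2 and 0.06 for ATG101, RPRML and PFKFB3, whereas MYC itself varied by 0.30 around its mean. Among the members MAX was nearest to MYC at 0.22, with 1372 other genes nearer, followed by MLX (0.24) and MXD3 (0.26). MGA was the farthest member at 0.52.

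**Figure D3:**
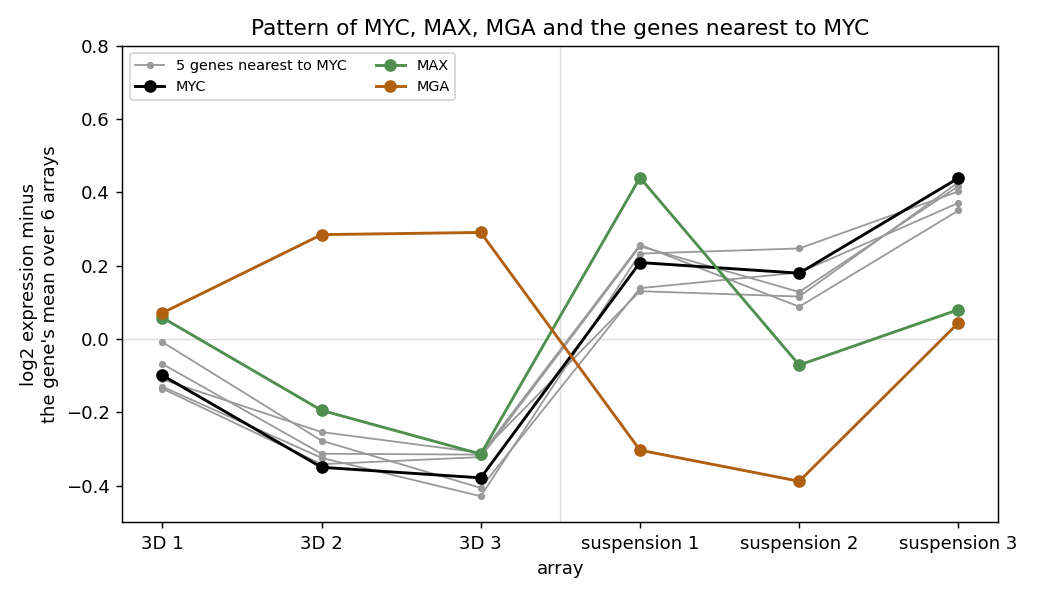
The vertical axis gives log2 expression minus the gene's own mean over 6 arrays, and the horizontal axis the 3D and suspension arrays. MYC (black) and the 5 genes nearest to it (grey) lie below 0 in the 3D arrays and above 0 in the suspension arrays. MGA (orange) lies above 0 in the 3D arrays and MAX (green) overlaps between the groups.

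Direct targets that MYC raises were read from 2 lists, chosen with earlier results of these data known. Of 22 genes of ribosome biogenesis, 16 were measured, with a median log2 difference of -0.13, 11 lower and 5 higher in 3D. TCOF1, a cofactor of rRNA transcription, was the 1 gene with an unadjusted p under 0.05, at -0.45 ± 0.15 (SE), against 3.97% of all genes lower. With the block 3 were under 0.05, 1 higher (NOP58) and 2 lower (TCOF1 and GRWD1), against 10% and 7.36% of all genes. NOP58, a core protein of small nucleolar particles, stood on the other side at 0.49 ± 0.22, GRWD1, a ribosome assembly chaperone, had -0.39 ± 0.18, and FBL, the rRNA methyltransferase fibrillarin, -0.28 ± 0.16. By replicate number the median was -0.24, 0.03 and -0.18, so pair 2 did not share it. Without suspension replicate 1 it was -0.03.

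Of 30 activated targets in metabolism, translation and cell cycle entry, 23 were measured, with a median difference of -0.13, 16 lower and 7 higher. TERT, the catalytic subunit of telomerase, had -0.37 ± 0.16 (SE). It was the 1 gene of the list at an unadjusted p under 0.05, against 3.97% of all genes lower. With the block 4 genes of the list were under 0.05, all lower, against 7.36% of all genes. SHMT2, a mitochondrial enzyme of one-carbon metabolism, had -0.30 ± 0.18, CDC25A, a phosphatase that activates cyclin-dependent kinases, -0.37 ± 0.23, and HK2, a hexokinase, -0.28 ± 0.18. The median by pair was -0.17, 0.05 and -0.27, and 0.00 without suspension replicate 1. Without the block 0 genes of both lists passed over all genes, with adjusted p-values (limma) of at least 0.411.

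Of 16 genes listed here as lowered by MYC 11 were measured, 2 higher and 9 lower in 3D, with a median difference of -0.15. The place of ID2 on this list is uncertain, and the direction in which MYC acts on these genes was not tested. Of these 0 had an unadjusted p under 0.05. With the block 1 was under 0.05, TXNIP, higher, against 10% of all genes. TXNIP, an inhibitor of thioredoxin, had 0.42 ± 0.20 (SE), with means of 7.98 ± 0.21 (SD, n = 3) in 3D and 7.56 ± 0.32 (SD, n = 3) in suspension. ID2, an inhibitor of basic helix-loop-helix factors, had -0.31 ± 0.15, and the CDK inhibitor genes CDKN2B and CDKN1C had -0.26 ± 0.16 and -0.15 ± 0.16. TXNIP is also the best known target of MondoA with MLX. The other targets of that pair diverged: PFKFB3 measured 5.48 ± 0.14 in 3D and 5.95 ± 0.13 in suspension (SD, n = 3 each), a difference of -0.46 ± 0.16. ARRDC4 had 0.22 ± 0.20 and HBP1 0.12 ± 0.20. Of the target lists, with 14.4% of all genes passing there, TCOF1 and NOP58 (lost without pair 1 or pair 3) and TXNIP (lost without any 1 pair) passed with the block and a mean of 6 or more.

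MYC with MAX reads the E-box CACGTG, which is its own reverse complement, so 1 search covers both strands. In RefSeq promoter windows of GRCh38.p14, from 250 bases before to 50 after the start, it was found in 7.26% of 35116 windows. Of 14250 measured genes with a window 10.8% held it, against 4 of 11 ribosome biogenesis targets and 10 of 20 growth targets. Of the 8 measured members with a window it was found in MLX and MNT, and the window of MXD4, which was not measured, held it too. The windows below show these members and, among growth targets with an E-box before the start, the lowest and highest difference, a target with 3 sites and a site shared by a gene pair, all picked after their values were seen. Each is 30 bases on the strand of the gene, with the E-box in capitals.
MLX, chr17:42567038-42567067, plus strand, E-box beginning 50 bases before the start: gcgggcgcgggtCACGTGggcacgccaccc
MNT, chr17:2401236-2401265, minus strand, 193 bases before the start: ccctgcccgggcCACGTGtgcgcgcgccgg
SRM, chr1:11060200-11060229, minus strand, 199 bases before the start: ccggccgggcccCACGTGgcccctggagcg
CDK4, chr12:57752509-57752538, minus strand, 216 bases before the start: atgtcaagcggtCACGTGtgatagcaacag
CDK4, chr12:57752489-57752518, minus strand, 196 bases before the start: atagcaacagatCACGTGgctgccatcgcc
CDK4, chr12:57752394-57752423, minus strand, 101 bases before the start: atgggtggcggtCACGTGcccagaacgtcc
EIF4E, chr4:98929341-98929370, minus strand, 225 bases before the start: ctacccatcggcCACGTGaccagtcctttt
EIF4E, chr4:98929188-98929217, minus strand, 72 bases before the start: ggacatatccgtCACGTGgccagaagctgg
HSPD1, chr2:197500345-197500374, minus strand, 88 bases before the start: cggccctggcgaCACGTGaaaaaatcaccc

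Genes with these sites did not share 1 direction. SRM, the spermidine synthase gene, had a log2 difference of -0.44 and CDK4, the kinase of cyclin D, of -0.31, while EIF4E, the cap-binding initiation factor, had 0.20. HSPD1 and HSPE1 encode a mitochondrial chaperonin and its cochaperonin from opposite strands, and the site printed for HSPD1 lies 22 bases before the start of HSPE1. Their differences were 0.16 and 0.07. Over the 10 growth targets with an E-box in the window the median difference was -0.24, against -0.07 over the 10 without. Over ribosome biogenesis targets, 4 of 11 with an E-box, it was -0.23 with and -0.08 without. Over all genes it was -0.03 with and -0.01 without. The split was not particular to activated targets, since T cell markers had -0.25 with (3 of 9 genes) and -0.10 without. It ran the other way for MYC coactivators and cofactors (-0.17 with, 3 of 8 genes, and -0.24 without) and for repressed MYC targets (-0.08 with, 1 of 8 genes, and -0.17 without). The same held for regulators of MYC transcription and mRNA (0.34 with, 2 of 17 genes, and 0.01 without). It also held for SIN3 partners (0.05 with, 1 of 10 genes, and -0.01 without). The remaining lists that held both kinds of gene had the lower median with an E-box. A match says only that the letters are there, and no match says nothing of whether a factor binds.

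**Figure D4:**
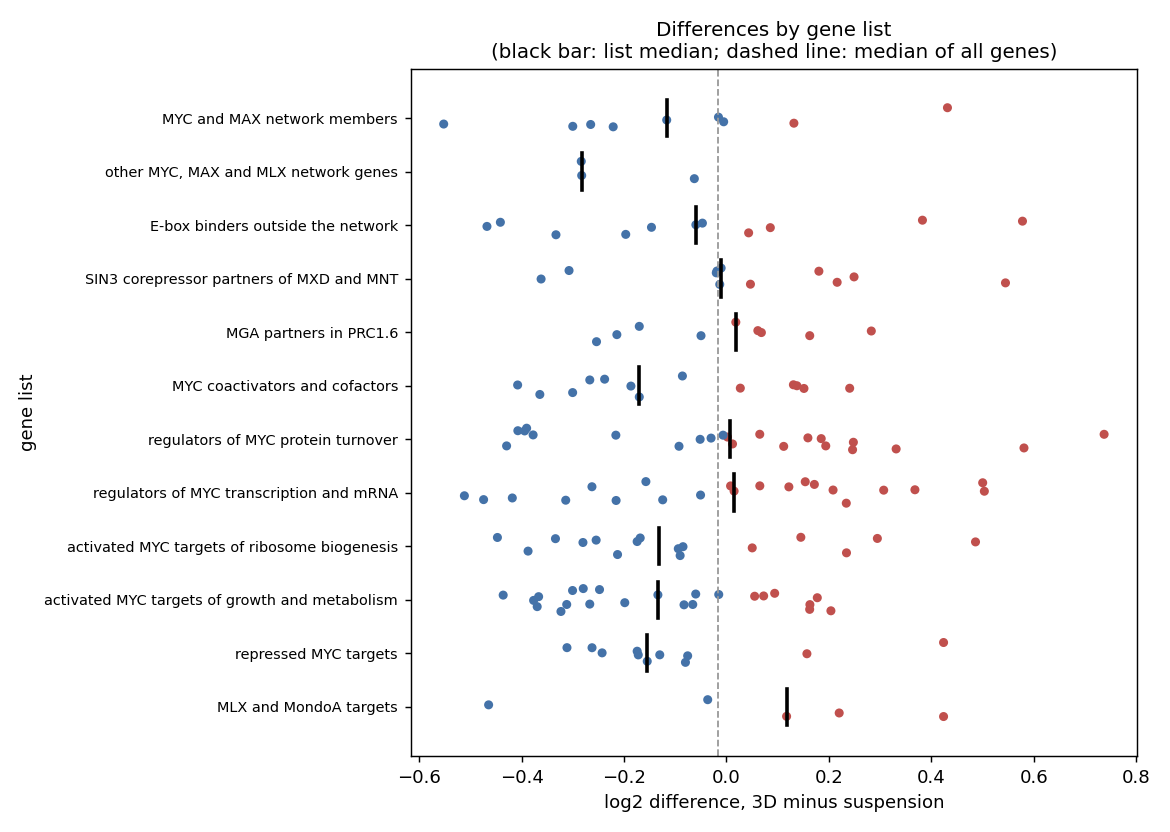
Each point is the log2 difference of 1 gene, 3D minus suspension, by gene list, in red where higher and blue where lower in 3D. Black bars are list medians, and the dashed line is the median of all genes, -0.02. The medians of the 3 lists of activated and repressed MYC targets lie left of that line, and each of these 3 spans both directions.

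Among the proteins that control MYC turnover, CIP2A had the smallest p. This protein, which protects MYC from the phosphatase PP2A, had mRNA values of 8.29, 8.34 and 8.32 in 3D arrays, against 7.52, 7.56 and 7.66 in suspension arrays. All 3D arrays lay above all suspension arrays, and replicates of each culture were close together. The log2 difference was 0.74 ± 0.15 (SE), with pairs at 0.77, 0.78 and 0.65 and an adjusted p of 0.330 (limma). With the block and a mean of 6 or more the adjusted p was 0.00140 (limma), where 10.6% of all genes tested passed as higher. Without pair 1, 2 or 3 the adjusted p was 0.0110, 0.000768 and 0.00543.

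USP37, a deubiquitinase of MYC, had a difference of 0.58 ± 0.17 (SE), TRIM32, a ubiquitin ligase, -0.39 ± 0.15, and GSK3A, a kinase related to the one that marks MYC for destruction, -0.43 ± 0.17. Of 24 genes of this list 22 were measured, 12 higher and 10 lower, with a median of 0.01. An unadjusted p under 0.05 was found for 6, 2 higher and 4 lower, against 5.9% and 3.97% of all genes. After adjustment over all genes 0 of the 22 passed. With the block and a mean of 6 or more 20 genes of this list were tested. CIP2A and USP37 (adjusted p 0.00837, limma) passed there as higher and GSK3A (0.0374) as lower, against 10.6% and 3.78% of all genes tested. Leaving out pair 1 ended the calls of USP37 and GSK3A, as leaving out pair 3 did for GSK3A.

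Without the block, FUBP1 and PUF60 had the smallest p among regulators of the MYC gene and its mRNA, and neither passed after adjustment. They act as activator and repressor on 1 element upstream of the MYC promoter, and their differences had opposite signs. FUBP1, which binds the far upstream element of MYC and raises its transcription, measured 9.40, 9.34 and 9.31 in 3D, against 9.05, 8.48 and 9.02 in suspension. PUF60, the repressor that acts on FUBP1, measured 8.04, 8.22 and 8.04 in 3D, against 8.74, 8.48 and 8.50 in suspension. Neither gene had overlapping groups, with FUBP1 at 0.50 ± 0.19 (SE) and PUF60 at -0.47 ± 0.16, and adjusted p-values of 0.428 and 0.405 (limma). Of the 21 measured genes of this list 2 higher and 1 lower did not overlap, against 16.3% of all genes (8.28% higher, 8.03% lower).

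NOTCH1, a main driver of MYC in T-ALL, had -0.42 ± 0.19 and NFATC1, a calcium-controlled activator, -0.51 ± 0.20. Over the 21 measured of 23 genes the median was 0.01, with 12 higher and 9 lower. At an unadjusted p under 0.05 there was 1 higher and 3 lower, against 5.9% and 3.97% of all genes. With the block there were 3 higher and 3 lower, against 10% and 7.36% of all genes. With the block and a mean of 6 or more 18 were tested, and 4 passed, against 14.4% of all genes: RBPJ and FUBP1 higher (10.6% of all genes) and PUF60 and NOTCH1 lower (3.78%). RBPJ, the DNA-binding partner of NOTCH and named after its value was seen, had a difference of 0.50. Leaving out pair 2 ended the call of FUBP1, leaving out pair 1 or pair 3 those of RBPJ and PUF60, and leaving out any pair that of NOTCH1.

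In the fit without a block no gene on the cofactor lists passed after adjustment over all genes. Of 15 coactivators and cofactors of MYC 13 were measured, 5 higher and 8 lower, with a median difference of -0.17. Of these 0 had an unadjusted p under 0.05. With the block 2 were under 0.05, KAT5 and ZBTB17, each lower, against 7.36% of all genes. KAT5, an acetyltransferase, had -0.36 ± 0.18 (SE), ZBTB17, the factor MIZ1 through which MYC represses, -0.41 ± 0.20, CDK9, the elongation kinase, -0.27 ± 0.16, and SMARCB1, a SWI/SNF subunit, -0.30 ± 0.19. Of 12 SIN3 complex genes 11 were measured, with a median of -0.01. ARID4B, a SIN3 subunit, had 0.54 ± 0.18, with all 3D arrays above all suspension arrays. With the block and a mean of 6 or more its adjusted p was 0.0134 (limma), where 10.6% of all genes tested passed as higher. ARID4B was the 1 gene of 10 tested from this list to pass there. The call was lost without pair 1 (0.101) or pair 3 (0.173). SAP130 had -0.36 ± 0.19 (unadjusted p 0.0839, and 0.0285 with the block, limma), SIN3B -0.31 ± 0.20 and RBBP7 0.25 ± 0.17.

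Of 10 genes for partners of MGA in PRC1.6 9 were measured, 5 higher and 4 lower, with a median of 0.02 and 0 at an unadjusted p under 0.05. CBX3, a reader of methylated histone H3, had 0.28 ± 0.16 (SE), RING1, a ubiquitin ligase of histone H2A, -0.25 ± 0.20, L3MBTL2, -0.21 ± 0.18, and WDR5, -0.17 ± 0.16. Adjusted p-values (limma) were 0.580 or more.

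Gene span moved with the differences. Genes of 7.24 to 17.7 kb, one of 5 equal groups by span and that of MYC (7.52 kb), had a median difference of -0.07. The group with the longest spans, which holds MGA (149 kb) and MAX (96.6 kb), had 0.06. After removal of the trend that each array showed on span and on the number of neighbours within 500 kb, an alternative added with the results known, the difference was -0.56 for MYC and 0.38 for MGA. The 13 T cell markers had a median difference of -0.21, 9 lower and 4 higher. CD247, CD3D and CD5 were lower with no overlap, against 8.03% of all genes. With the block and a mean of 6 or more CD247 (-0.52, adjusted p 0.0133, limma) and BCL11B (-0.44, 0.0457) passed as lower. They were 2 of 13 T cell markers, against 3.78% of all genes tested that passed as lower. Both calls were lost without pair 3, as was that of MYC. The 28 markers of other cell types had -0.07, 21 lower and 7 higher, and the part of either list in the values of MYC was not tested.

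**Figure D5:**
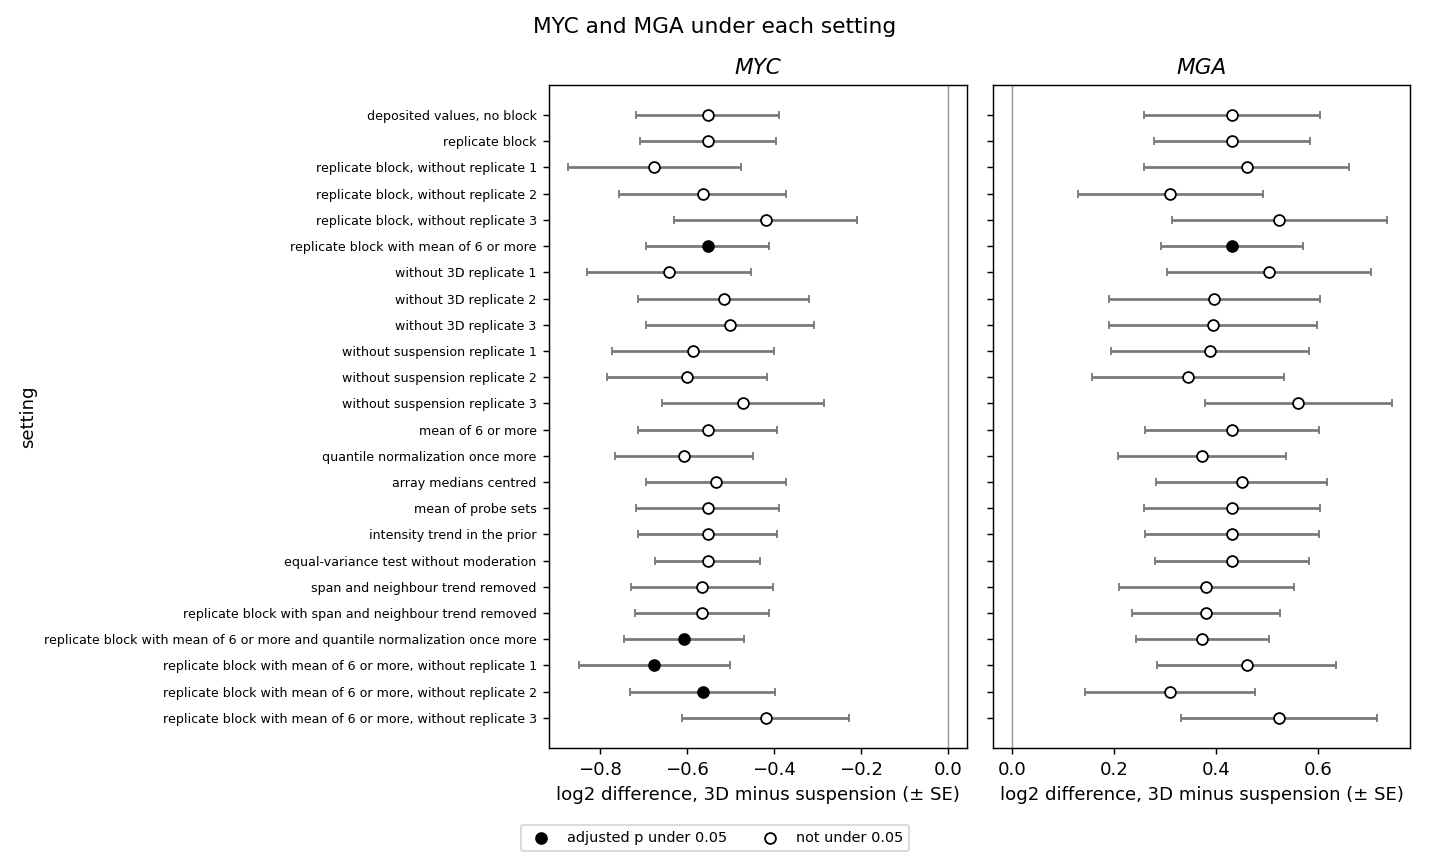
Points give the log2 difference of MYC (left) and MGA (right), 3D minus suspension, under each setting, with bars of 1 SE. Filled points passed at an adjusted p under 0.05 (limma). All points of MYC lie between -0.67 and -0.42 and all of MGA between 0.31 and 0.56, and filled points occur only with the replicate block and a mean of 6 or more.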

How the data were processed

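Labelled RNA of 6 Jurkat samples was hybridised to Affymetrix whole-transcript arrays, per the labels' protocols. The deposited log2 values per probe set were made with RMA and the Transcriptome Analysis Console, per the submitters' processing notes; versions, annotation and build are not given in the sources used here. The method shrinks differences of dim probe sets. Of 21448 probe sets, 17709 had 1 gene symbol, 0 several and 3739 none, and the highest-mean probe set per gene left 17687 genes. There were 0 columns of values beyond the 6. Groups and replicate numbers came from the titles.

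Groups were compared two-sided with lmFit and eBayes of limma 3.58.1 under R 4.3.3, without a block or filter, Benjamini-Hochberg adjusted over all genes, with a threshold of 0.05. The code was tested on simulated data. The labels name no pairing. Deviations from the group means correlated between arrays of equal number at 0.521, 0.120 and 0.337. All were over 0.1, so the numbers were taken as pairs, an inference from these same values. Each setting in which MYC or MGA passed used this block. Block values are given where they change a call or a list's count. Degrees of freedom were 4 residual and 6.79 prior, or 2 and 9.78 with the block, and 2 and 25.0 with the block and a mean of 6 or more. All 10 members were to be named, with up to 4 genes of smallest p per other list and the 5 genes nearest to MYC; exceptions are marked. Of 223 list genes 192 were measured. Members and lists were chosen with earlier results of these data known. Promoter windows came from RefSeq GRCh38.p14, and figures from matplotlib 3.10.9 under Python 3.11.15. Alternatives were a block, a filter, scaling, probe set choice, spread estimates and leaving out arrays.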

Additional observations from a re-analysis of the deposited data

How the results depend on the processing

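Under all alternatives run MYC stayed lower in 3D (-0.67 to -0.42 over 23 settings) and MGA higher (0.31 to 0.56), and MAX, MXD3 and MLX kept their sign; with 1 array left out, MGA ran from 0.35 to 0.56 with unadjusted p-values of 0.0124 to 0.1001 (limma). MYC passed the threshold in 4 settings, with the replicate block and a mean of 6 or more: -0.55 with all arrays, -0.61 after a further quantile normalization, -0.67 without replicate 1 and -0.56 without replicate 2. The settings that add quantile normalization or leave out a pair there, and the span trend, were chosen after seeing the data. Members past the threshold numbered 2, 1, 1 and 2 in those 4, and MXD3 was the other one without replicate 2, at -0.47. Genes past the threshold numbered 0 in the reported fit, 16 with the replicate block, 21, 150 and 36 with the block without replicate 1, 2 or 3, and 1199 with the block and a mean of 6 or more. That last setting gave 1216 after quantile normalization and 458, 1457 and 406 without replicate 1, 2 or 3. Genes at an unadjusted p under 0.05 (1745, or 9.87% of 17687) numbered 3075 with the block and 3307 with the block without replicate 2. They numbered 2780 with the block and the span trend removed. Of the 8342 genes with a mean of 6 or more they numbered 1031 (12.4%), a higher share. With that limit and the block they numbered 2672 (2771 after quantile normalization, 2712 without replicate 2). With 1 array left out, genes at an unadjusted p under 0.05 ranged from 1075 to 2007. Genes without overlap (2886, or 16.3% of all genes) numbered 1701 with a mean of 6 or more, or 20.4% of those tested. With 1 array left out they ranged from 4001 to 5317, where 3 arrays against 2 separate more easily. Members at an unadjusted p under 0.05 ranged from 1 to 2, with the block from 1 without replicate 3 to 4 without replicate 2 (also with the mean limit), and members without overlap from 2 to 4. After quantile normalization the 2 members without overlap were lower in 3D, so the groups of MGA overlapped there. With 1 array left out, MXI1 ranged from -0.14 to 0.34, MXD1 from -0.20 to 0.20, MNT from -0.16 to 0.13 and MYCN from -0.25 to 0.031. With the block, and also with the mean limit where they were tested, the sign reversed without replicate 1 for MXD1 (0.032) and MYCN (0.065), without replicate 2 for MXI1 (-0.021) and MXD1 (0.073), and without replicate 3 for MNT (0.036). With array medians centred MXD1 was at 0.013 and MNT at 0.00322, and MNT was at 0.00239 after quantile normalization and at 0.016 with the span trend removed, with or without the block. With a mean of 6 or more but no block 0 genes passed. With both, 32.0% of the genes tested had an unadjusted p under 0.05 (limma), and the prior degrees of freedom were 25.0. The cause of the rise in calls was not tested. Dim genes such as MYCN sit near the floor, where differences are compressed.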

Other observations

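E-box binders outside the network also differed among themselves. CLOCK, a circadian activator that binds E-boxes with BMAL1, measured 5.97, 6.05 and 6.34 in 3D arrays, against 5.50, 5.45 and 5.67 in suspension arrays. Its log2 difference was 0.58 ± 0.17 (SE), with pairs at 0.47, 0.60 and 0.66 and an adjusted p of 0.380 (limma). TFAP4, a target of MYC, had -0.33 ± 0.18 at means of 6.76 in 3D and 7.10 in suspension. With the replicate block and a mean of 6 or more, 1 of 6 genes tested passed, as lower, against 3.78% of all genes. That gene was USF1, named after its values were seen, at -0.44 with an adjusted p of 0.0437 (limma). The call was lost without pair 1 (0.0505) or pair 3 (0.549). TFEB (-0.47 ± 0.17) and TFEC (0.38 ± 0.17) lay near the floor of the arrays, with means of 3.01 and 2.84 in 3D and 3.48 and 2.46 in suspension. Over the 11 genes the median difference was -0.06, with 7 lower and 4 higher. At an unadjusted p under 0.05 2 were higher and 1 lower, TFEB and TFEC among them, against 5.9% and 3.97% of all genes. With the block 2 were higher and 2 lower, against 10% and 7.36% of all genes.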
